A study of Mus musculus with 8 samples.

Results

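The guidance genes described here are the semaphorins and their plexin and neuropilin receptors, the ephrins and their Eph receptors, the Slits and Robo receptors, and the netrins with their receptors. They were taken from the count table by symbol: every gene starting with Sema, Plxn, Epha, Ephb, Efna, Efnb, Robo or Unc5, together with Slit1, Slit2, Slit3, Nrp1, Nrp2, Ntn1, Ntn4, Neo1 and Dcc. Of 71 such genes, 7 had no count in any library (Efnb3, Epha8, Robo3, Robo4, Sema3g, Sema4f and the antisense RNA Plxna4os1), which left 64 guidance genes among 18975 genes with a count. The name rule also took Unc50, a Golgi membrane protein, and Unc5cl, a death domain protein related to the Unc5 receptors, and neither is a netrin receptor.

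RNA was sequenced from 2 luminal epithelial fractions of the mammary gland of virgin C57BL/6J mice, wild type and untreated, aged 12 to 20 weeks. Luminal cells were sorted by FACS on EpCAM, CD49f, c-Kit and CD14, and the c-Kit high fraction (luminal progenitors, LP) was set against the c-Kit low fraction (mature luminal cells). There were 4 LP and 4 mature libraries, and the labels do not say whether they came from separate mice. The LP and mature libraries of a replicate number share a prefix in their sample names, and whether both fractions came from the same mouse is not stated, so p-values measure the spread between these libraries. Library totals ran from 4410049 to 7791593 counts, and a library with no count for a gene still allowed a level of up to 0.385 to 0.68 CPM (counts scaled to a library of 1000000), taken as 3 counts of its total.

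Guidance cues were first described for growing axons, and the same ligands and receptors act between epithelial cells. Semaphorins signal through plexins, with neuropilins as co-receptors for the secreted class 3 members, whereas ephrins are held on the cell surface and signal on contact with Eph receptors on a neighbouring cell, in both directions. Slits bind Robo receptors and netrins bind neogenin (Neo1), DCC and the Unc5 receptors. In the mammary gland, netrin-1 with neogenin and Slit2 with Robo1 are known for adhesion between the layers of the growing duct and for its branching.

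The fractions were checked by marker genes before the guidance genes were read. The luminal keratins Krt8, Krt18 and Krt19 with Epcam summed to 11277 to 12493 CPM (scaled from here on by TMM library factors) in LP and 22792 to 40819 CPM in mature libraries. The summed level of 4 LP markers (Kit, Cd14, Elf5, Aldh1a3), 2 of which were used in the sort, was 13574 to 20040 CPM in LP and 244 to 966 in mature libraries, and 6 mature markers (Esr1, Pgr, Prlr, Foxa1, Cited1, Areg) reached 307 to 997 and 4370 to 6145 CPM. In LP libraries most of the LP marker sum was Cd14, a sort marker, at 12142 to 18322 CPM. Of the LP markers not used in the sort, Elf5 passed (log2 fold change 2.02 ± 0.40, adjusted p = 0.0052, edgeR). Aldh1a3 did not pass (1.37 ± 0.46, adjusted p = 0.0512). In mature libraries most of the mature marker sum was Prlr, at 3875 to 5442 CPM. Mature replicate 3 had the highest LP marker sum of its group and also the highest basal marker sum. Of other cell types, 8 basal markers summed to 4.02 to 18.1 CPM in LP and 8.93 to 53.4 in mature libraries, 6 fibroblast markers to 7.35 to 41.7 and 27.0 to 179 CPM, 6 endothelial and pericyte markers to 4.79 to 15.5 and 1.58 to 8.08 CPM with Kdr at 0 in every library, and 6 immune markers to 41.5 to 55.6 and 11.1 to 45.7 CPM with Cd3e at 0. Of these 4 lists, 4, 4, 1 and 2 genes had enough counts to test between fractions, and none passed. The lowest adjusted p was that of Dcn, a fibroblast marker lower in LP (log2 fold change -2.41 ± 0.87, adjusted p = 0.067, edgeR).

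LP and mature cells differed in 13 of 44 guidance genes with enough counts to test (29.5%), against 24.7% of all 12816 genes tested (edgeR quasi-likelihood test, Benjamini-Hochberg adjusted p under 0.05). The share among guidance genes was thus close to that of the whole transcriptome. In LP, 6 genes were higher (background 10.9%), namely the ephrin Efna5, the netrins Ntn1 and Ntn4, the receptor Epha7, Unc5cl and Unc50. In mature cells, 7 were higher (background 13.8%), namely the ephrins Efna1 and Efna3, the semaphorins Sema3c, Sema4c and Sema5b, and the receptors Nrp1 and Robo1. Without Unc50 and Unc5cl, 11 of 42 genes passed (26.2%). The median log2 fold change of LP over mature was 0.24 over the 44 guidance genes and 0.00 over all genes. The LP and mature libraries did not overlap for 10 of the 44, and 29.5% of all tested genes had that property.

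Of the tested ligands 8 of 21 passed (38.1%, 3 higher in LP, 5 in mature), and of the tested receptors 3 of 21 (14.3%, 1 and 2). The share over all tested genes was 24.7%. The difference between these shares was not tested. The number of calls depended on single libraries: it was 7 to 12 when each library was left out in turn, and the 7 came without LP replicate 2. Calls over all genes moved as well, from 3161 of 12816 with all libraries to 2338 of 13136 without LP replicate 2. The guidance genes higher in mature cells numbered 3 without LP replicate 2 and 4 without LP replicate 4. Over all genes, those higher in mature cells numbered 1337 and 1388 in these fits, against 1767 with all libraries.

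**Figure D1:**
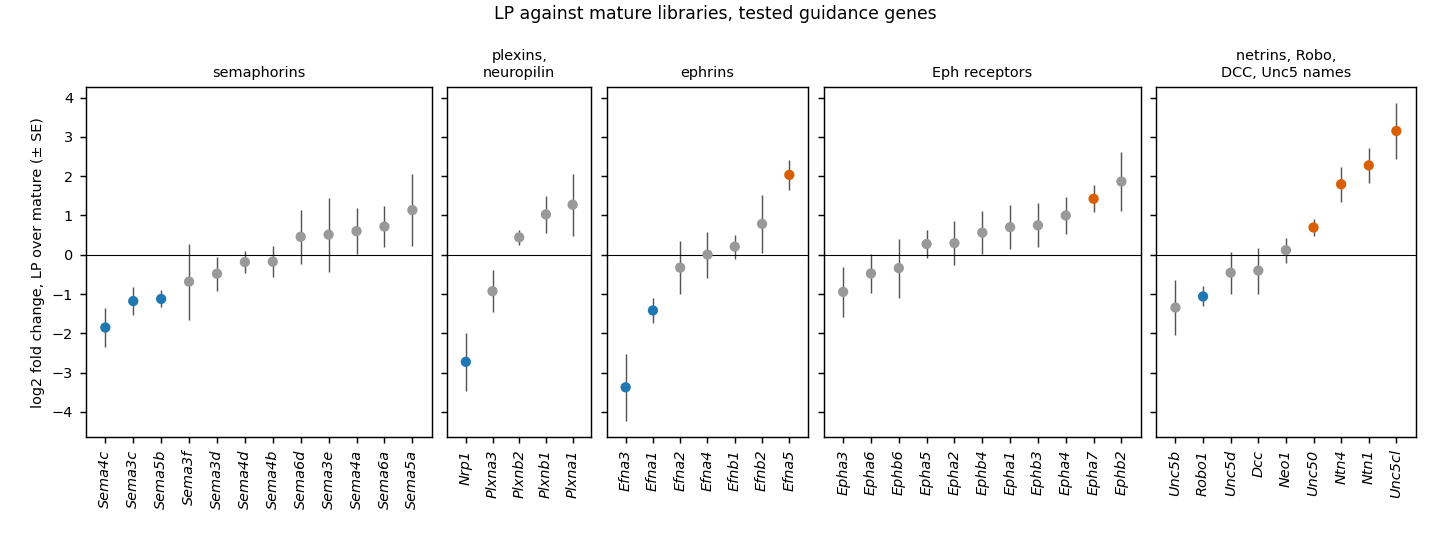
Log2 fold change of LP over mature libraries (y axis, ± SE) for the 44 tested guidance genes (x axis, by family), with orange points for genes higher in LP, blue for genes higher in mature cells and grey for genes past no threshold (edgeR, adjusted p under 0.05). The orange points lie between 0.69 and 3.15, the blue between -3.37 and -1.06, and all tested plexins are grey.

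The ephrin-A ligands are tethered to the membrane by a lipid anchor and bind EphA receptors. They had 3 calls among 5 tested genes (background 24.7%), with Efna5 higher in LP and Efna1 and Efna3 higher in mature cells. Efna1, Efna3 and Efna4 are neighbours on mouse chromosome 3 within 66.3 kb, and Efna5 is on chromosome 17. The 250 bases before the start of each gene are shown to set the called ephrin-A genes beside Efna4, the uncalled gene of the same cluster. They are RefSeq sequences of GRCm38.p6, all on the minus strand, at chr3:89280952-89281201 (Efna1), chr3:89322940-89323189 (Efna3), chr3:89338029-89338278 (Efna4) and chr17:62881318-62881567 (Efna5), written 5′ to 3′ with capitals for a match to AGATAA, a sequence that GATA-type zinc fingers bind.
Efna1: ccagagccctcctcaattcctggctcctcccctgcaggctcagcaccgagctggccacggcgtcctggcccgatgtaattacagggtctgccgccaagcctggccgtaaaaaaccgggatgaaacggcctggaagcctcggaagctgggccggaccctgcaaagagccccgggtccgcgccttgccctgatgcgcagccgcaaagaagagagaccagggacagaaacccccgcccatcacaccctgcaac
Efna3: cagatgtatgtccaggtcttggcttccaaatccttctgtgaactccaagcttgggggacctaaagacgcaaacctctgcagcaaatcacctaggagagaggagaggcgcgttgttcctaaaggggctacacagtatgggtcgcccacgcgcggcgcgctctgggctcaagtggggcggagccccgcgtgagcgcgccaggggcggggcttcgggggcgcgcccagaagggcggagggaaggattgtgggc
Efna4: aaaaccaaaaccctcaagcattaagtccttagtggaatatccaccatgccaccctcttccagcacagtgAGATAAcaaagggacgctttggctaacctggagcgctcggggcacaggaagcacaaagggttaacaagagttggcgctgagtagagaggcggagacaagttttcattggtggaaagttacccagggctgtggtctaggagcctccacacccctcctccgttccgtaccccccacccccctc
Efna5: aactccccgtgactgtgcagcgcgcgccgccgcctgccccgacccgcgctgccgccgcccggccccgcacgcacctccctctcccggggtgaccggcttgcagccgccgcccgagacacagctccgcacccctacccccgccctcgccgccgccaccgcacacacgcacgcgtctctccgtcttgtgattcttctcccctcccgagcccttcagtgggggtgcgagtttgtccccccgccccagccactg

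Of these, only the Efna4 promoter held the motif, with its last base 175 bases before the start. The stretches differ in base composition, with 16, 19, 7 and 32 CpG dinucleotides and 64.8, 63.6, 54.4 and 74.8% G or C for Efna1, Efna3, Efna4 and Efna5. All annotated promoters of this length had a median of 6 CpG and 52% G or C, and the 55 guidance genes with a promoter entry a median of 17 and 65.2%.

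Efna5 (Entrez Gene 13640; chr17:62602957-62881317) was higher in LP. Its level was 504, 668, 625 and 496 CPM in LP replicates 1 to 4 and 51.5, 146, 250 and 113 CPM in mature replicates 1 to 4. All LP libraries lay above all mature libraries. Mature replicate 3, which also had the highest LP and basal marker sums of its group, was the highest of its group. The difference was 4.09-fold (log2 fold change 2.03 ± 0.39 SE, adjusted p = 0.004, edgeR) and passed in every fit with a library left out.

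Efna1 (13636; chr3:89271730-89280951) was the ephrin-A gene with the opposite direction at a comparable level. It had 213, 167, 186 and 152 CPM in LP and 639, 703, 307 and 269 CPM in mature libraries, with no overlap. Mature cells exceeded LP 2.67-fold (log2 fold change -1.42 ± 0.31, adjusted p = 0.0079, edgeR). Mature replicates 1 and 2, which were highest for Efna1, also had the highest fibroblast marker sums, 138 and 179 CPM against 28.3 and 27.0 CPM in replicates 3 and 4. Most of the sum in replicates 1 and 2 was a single marker, Dcn, with 132, 154, 14.1 and 20.6 CPM in mature replicates 1 to 4. The part of fibroblasts in the Efna1 level was not tested.

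Efna3 (13638; chr3:89313899-89322939) lies next to Efna1 and changed in the same direction from a lower level. The LP libraries had 5.08, 1.44, 1.49 and 0 CPM, and the mature libraries 19.5, 29.4, 27.4 and 7.38 CPM. The groups did not overlap, and LP replicate 4 held no read of the gene. The log2 fold change was -3.37 ± 0.86 (adjusted p = 0.016, edgeR), and it was -3.24 without LP replicate 2 (adjusted p = 0.0504) and -4.41 without LP replicate 1 (adjusted p = 0.0104). Exons of Efna3 share 344 bases with an antisense gene, Gm15998, whose reads cannot be told apart because the use of strand in counting is not stated.

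Efna4 (13639; chr3:89333393-89338028), the next gene of the cluster, had 10.02, 4.60, 14.6 and 2.77 CPM in LP and 8.86, 4.73, 13.6 and 4.52 CPM in mature libraries. The groups overlapped throughout, with a log2 fold change of 0.00 ± 0.59 (adjusted p = 0.997, edgeR). Among the 10 other genes with a count within 50 kb of the cluster, 8 were tested, and 2 were higher in LP: Muc1, a cell surface mucin (log2 fold change 3.41 ± 0.68, adjusted p = 0.0052), and Trim46 (1.54 ± 0.48, adjusted p = 0.038). Slc50a1, the gene adjacent to Efna1, was higher in mature cells (-0.62 ± 0.19, adjusted p = 0.032), so genes of both directions lie side by side in this stretch. The fifth ephrin-A gene, Efna2, differed by -0.33 ± 0.68 (adjusted p = 0.762).

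Per kilobase of exon, the only scale on which genes can be set against each other, Efna5 and Efna1 made up most of the ephrin-A signal in every library. Efna5 stood at 142 ± 21.4 CPM per kilobase in LP and 34.7 ± 20.6 in mature cells (SD, n = 4), and Efna1 at 98.1 ± 14.4 and 262 ± 122. The ratio of Efna5 to Efna1 per kilobase was 1.07, 1.81, 1.52 and 1.48 in LP and 0.0365, 0.0943, 0.370 and 0.191 in mature libraries. With these lengths, Efna5 thus exceeded Efna1 in each LP library, by little in replicate 1, and lay below it in each mature library. The lengths take all annotated exons of a gene, 4032 bases for Efna5 and 1830 for Efna1. The transcripts in use were not measured, and other lengths would change these ratios. The sum over the 5 genes was 208 to 267 CPM per kilobase in LP and 181 to 437 in mature libraries, which overlap.

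**Figure D2:**
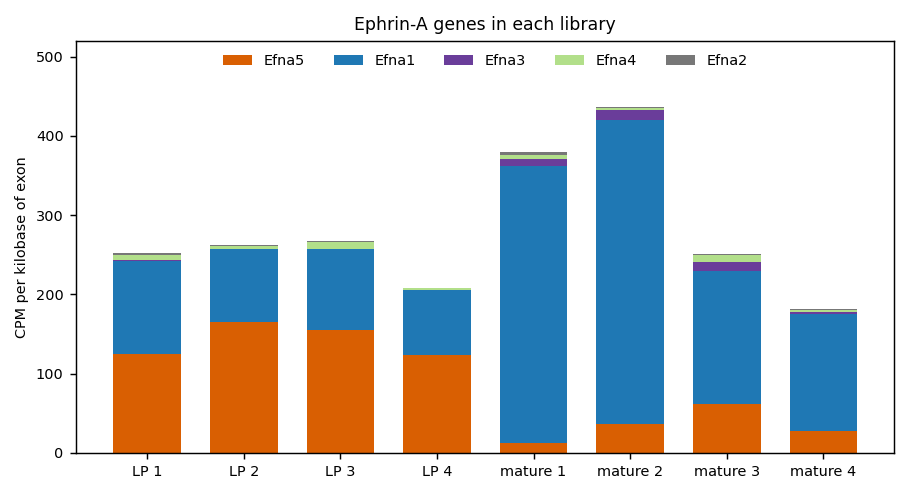
CPM per kilobase of exon (y axis) of the 5 ephrin-A genes, stacked, in each of the 8 libraries (x axis). Efna5 takes 49.6 to 63.3% of the stack in LP libraries and 3.37 to 24.7% in mature libraries, and Efna1 takes the largest share in all mature libraries.

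The transmembrane ephrin-B ligands passed no threshold in 2 tested genes (background 24.7%). Efnb1 had a mean of 26.4 ± 7.58 CPM in LP and 22.8 ± 6.92 CPM in mature cells (SD, n = 4), a log2 fold change of 0.21 ± 0.31 (adjusted p = 0.666, edgeR). Efnb2 had 13.7 ± 9.95 and 7.90 ± 8.46 CPM, a difference of 0.79 ± 0.75 (adjusted p = 0.482). Mature replicate 3 had the highest Efnb2 value of its group, 20.4 CPM, and without it the log2 fold change was 1.93 with an adjusted p of 0.0618.

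Of the Eph receptors, tyrosine kinases for the ephrins, 1 of 11 tested passed (9.09%, background 24.7%). Epha7 (13841; chr4:28813066-28967503) had 27.0, 26.0, 36.5 and 13.2 CPM in LP and 9.28, 9.98, 11.4 and 7.53 CPM in mature libraries. The groups did not overlap, although LP replicate 4 lay close to mature replicate 3. The change was 2.69-fold (log2 fold change 1.43 ± 0.34, adjusted p = 0.012, edgeR) and passed in each fit with a library left out.

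The EphA receptors Epha5 and Epha4 had higher counts without passing. Epha5 reached 55.3 ± 24.9 CPM in LP and 45.7 ± 19.0 CPM in mature cells (log2 fold change 0.27 ± 0.36, adjusted p = 0.617). Epha4 reached 46.3 ± 22.9 and 23.1 ± 15.7 CPM (1.00 ± 0.47, adjusted p = 0.147). Mature replicate 3 had the highest Epha4 value of its group, 45.5 CPM, and without it the log2 fold change of Epha4 was 1.61 with an adjusted p of 0.0187. The other 8 tested Eph receptors lay between -0.94 ± 0.63 (Epha3) and 1.86 ± 0.76 (Ephb2), and the lowest adjusted p among them was 0.0989. Epha10 and Ephb1 were not tested, with 42 and 23 counts over all libraries.

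Per kilobase, Epha4 was the leading Eph receptor in LP at 5.75 ± 2.85 CPM per kilobase, followed by Epha5 at 3.30 ± 1.49, Epha1 at 3.25 ± 2.67 and Epha7 at 2.60 ± 0.97. Neighbours in this order overlapped between libraries. All lay far below Efna5 and Efna1. In mature cells Epha4 stood at 2.87 ± 1.95, Epha5 at 2.73 ± 1.14 and Epha7 at 0.966 ± 0.163 CPM per kilobase.

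Both netrins taken by the rule, Ntn1 and Ntn4, were higher in LP (background 10.9%). Ntn3 had too few counts to test, and Ntn5 had none. Netrins are secreted proteins related to laminins, and Ntn4 is known to bind laminins of the basement membrane. Ntn1 (18208; chr11:68209364-68386826) had 118, 129, 152 and 97.7 CPM in LP and 11.7, 20.8, 56.0 and 13.7 CPM in mature libraries. The groups did not overlap, and mature replicate 3 was again the highest of its group. The difference was 4.84-fold (log2 fold change 2.27 ± 0.45, adjusted p = 0.0047, edgeR), and without mature replicate 3 the log2 fold change was 3.06 (adjusted p = 9e-05).

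Ntn4 (57764; chr10:93641049-93745972) had 35.4, 57.8, 18.9 and 35.2 CPM in LP and 8.30, 20.2, 9.53 and 5.12 CPM in mature libraries. LP replicate 3 lay below mature replicate 2, so the groups overlapped. The log2 fold change was 1.79 ± 0.45 (adjusted p = 0.015), and without LP replicate 2 it was 1.49 with an adjusted p of 0.0534. The basal marker sums, given above, overlapped between fractions, and the 4 tested basal markers did not share a direction. Oxtr was higher in LP (log2 fold change 3.12 ± 1.30, adjusted p = 0.106, edgeR). Krt14 (-1.88 ± 0.78, adjusted p = 0.103), Acta2 (-2.47 ± 0.93, adjusted p = 0.078) and Cnn1 (-1.44 ± 1.12, adjusted p = 0.381) were lower in LP. The part of basal cells in the Ntn4 level was not tested.

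The netrin receptors showed no call (background 24.7%). Neo1, neogenin, had 15.4 ± 1.31 CPM in LP and 14.2 ± 4.86 CPM in mature cells (SD, n = 4; log2 fold change 0.12 ± 0.32, adjusted p = 0.825). Dcc differed by -0.40 ± 0.59, Unc5b by -1.34 ± 0.69 and Unc5d by -0.46 ± 0.54, with adjusted p-values from 0.186 to 0.659. Unc5a and Unc5c had 1 and 33 counts in all and were not tested. Per kilobase, Ntn1 reached 19.8 ± 3.58 in LP and 4.07 ± 3.30 in mature cells, and Neo1 1.76 ± 0.15 and 1.63 ± 0.56.

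Unc5cl and Unc50, taken by their names and not netrin receptors, were both higher in LP. Unc5cl (76589; chr17:48454127-48539709), which encodes a death domain protein known to activate NF-kappaB, had 7.41, 11.1, 14.4 and 3.05 CPM in LP and 0.281, 0.525, 1.44 and 1.66 CPM in mature libraries. No library overlapped, and the log2 fold change of 3.15 ± 0.70 (adjusted p = 0.0089, edgeR) was the largest among guidance genes higher in LP. Its size rests on 2, 2, 10 and 11 counts in mature replicates 1 to 4, of which replicates 1 and 2 lay below the 3 counts taken as the limit. Unc50 (67387; chr1:37430139-37438987) had 102, 88.1, 57.1 and 67.6 CPM in LP and 57.4, 53.1, 39.1 and 44.9 CPM in mature libraries, where LP replicate 3 lay just below mature replicate 1. Its change of 0.69 ± 0.22 (adjusted p = 0.038) was the smallest called, and it no longer passed when LP replicate 1, 2 or 4 or mature replicate 2, 3 or 4 was left out (log2 fold change 0.55 to 0.76, adjusted p 0.0513 to 0.121).

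**Figure D3:**
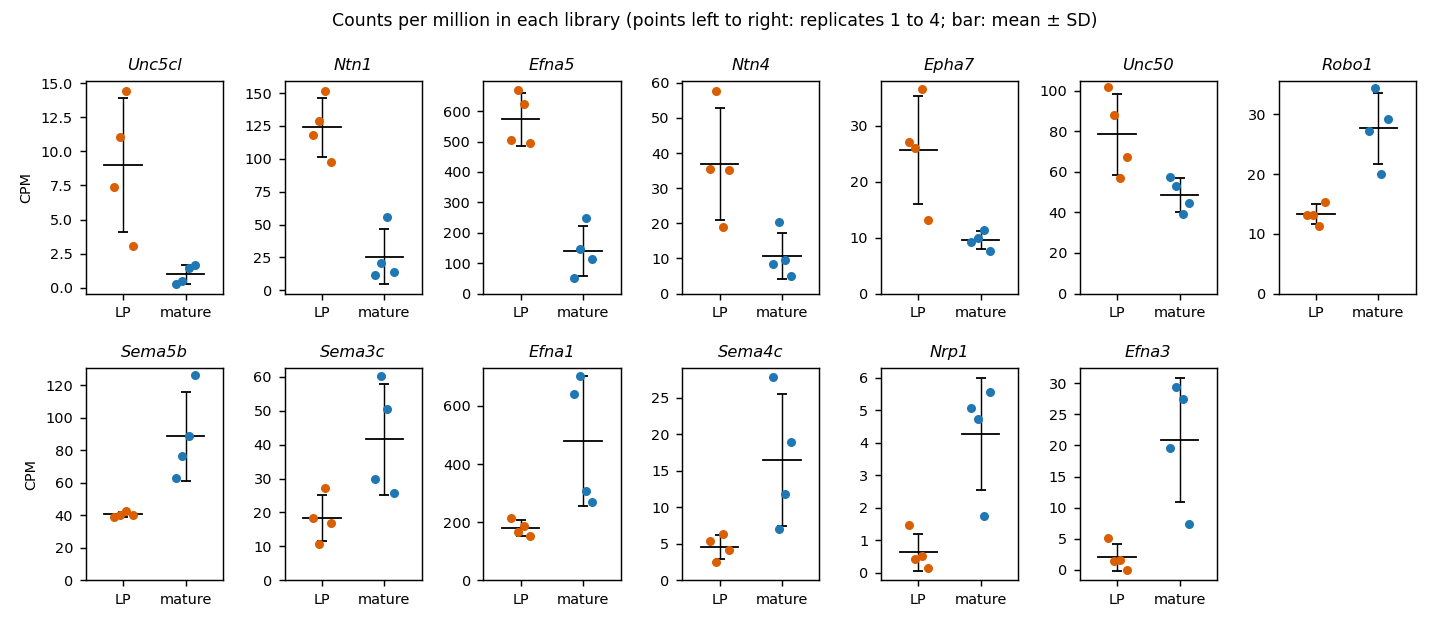
CPM (y axis, a separate scale per gene) in the 4 LP (orange) and 4 mature (blue) libraries for the 13 guidance genes past the threshold, with lines at the mean and bars of ± SD. Efna5, Ntn1, Epha7 and Unc5cl are higher in every LP library, Efna1, Efna3, Sema4c, Sema5b, Nrp1 and Robo1 in every mature library, and Ntn4, Unc50 and Sema3c overlap.

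Semaphorins that passed the test were all higher in mature cells. They were 3 of 12 tested (25%), close to the 24.7% called among all genes. They belong to 3 different classes. Sema5b (20357; chr16:35541154-35664261), a transmembrane semaphorin with thrombospondin repeats, had 39.2, 40.4, 42.5 and 40.5 CPM in LP and 62.7, 76.4, 88.8 and 126 CPM in mature libraries. The LP libraries lay within 1.37 CPM (SD) of their mean and below all mature libraries. The log2 fold change was -1.12 ± 0.22 (adjusted p = 0.0042, edgeR), and it passed in every fit with a library left out.

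Sema4c (20353; chr1:36548639-36560699; a transmembrane ligand of plexin-B2) had 5.37, 2.44, 6.31 and 4.16 CPM in LP and 27.8, 7.09, 11.8 and 19.0 CPM in mature libraries. The groups did not overlap but came close at LP replicate 3 and mature replicate 2. The log2 fold change of -1.85 ± 0.49 (adjusted p = 0.019) no longer passed without LP replicate 2, LP replicate 4 or mature replicate 1, with values of -1.81 to -1.46 and adjusted p-values of 0.0527 to 0.0669. Sema4c shares 334 exonic bases with the transcript D430040D24Rik on the opposite strand.

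Sema3c (20348; chr5:17574816-17730268), a secreted ligand that binds neuropilins, had 18.4, 10.8, 27.2 and 16.8 CPM in LP and 30.0, 60.2, 50.4 and 25.6 CPM in mature libraries. LP replicate 3 lay above mature replicate 4. The log2 fold change was -1.18 ± 0.35 (adjusted p = 0.032), and it did not pass with LP replicate 1, 2 or 4 or mature replicate 2 or 3 left out, nor with no filter on low counts (-1.18 to -0.93, adjusted p 0.0508 to 0.101).

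Among the semaphorins that did not pass, Sema4d, a ligand of plexin-B1, had the most counts, with 20.5 ± 4.08 CPM in LP and 23.4 ± 6.13 CPM in mature cells (SD, n = 4; log2 fold change -0.19 ± 0.27, adjusted p = 0.657). The other 8 tested ranged from -0.68 ± 0.96 (Sema3f) to 1.14 ± 0.92 (Sema5a). Sema3a, Sema3b, Sema4g, Sema6b, Sema6c and Sema7a were not tested, with 3 to 81 counts in all. Per kilobase, Sema5b was the leading semaphorin in both fractions, at 5.74 ± 0.19 in LP and 12.5 ± 3.87 in mature cells.

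The plexins, receptors for semaphorins, passed no threshold in 4 tested genes (background 24.7%). Plxnb2 had 83.0 ± 13.0 CPM in LP and 60.9 ± 11.98 CPM in mature cells (log2 fold change 0.44 ± 0.19, adjusted p = 0.119), and per kilobase it was the leading receptor in both fractions at 10.8 ± 1.68 and 7.89 ± 1.55. Plxnb1 had 14.7 ± 4.92 and 7.14 ± 4.41 CPM (1.03 ± 0.47, adjusted p = 0.139), and without mature replicate 1 its change was 1.504 with an adjusted p of 0.0453. Plxna1 and Plxna3 differed by 1.27 ± 0.79 and -0.93 ± 0.54.

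The 5 other plexins had 6 to 54 counts in all and were not tested. Plxna4 was the only guidance gene without a call whose groups did not overlap when scaled to library size, with 4, 3, 2 and 3 counts in LP and 0, 1, 2 and 0 counts in mature replicates 1 to 4. At so few reads no difference can be read from it. Reads of Plxnd1 came from 3 libraries, with 17 and 25 counts in LP replicates 3 and 4 and 12 in mature replicate 3.

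The neuropilin Nrp1 (18186; chr8:128358591-128505476), a co-receptor for class 3 semaphorins and for VEGF, was higher in mature cells at a low level. It had 1.45, 0.431, 0.498 and 0.139 CPM in LP and 5.06, 4.73, 1.73 and 5.57 CPM in mature libraries. The LP values came from 10, 3, 3 and 1 counts, so LP replicates 2 to 4 were at or below the 3 counts taken as the limit. The groups did not overlap, but LP replicate 1 and mature replicate 3 came close. The log2 fold change was -2.72 ± 0.74 (adjusted p = 0.022, edgeR). It no longer passed without LP replicate 2, 3 or 4 or mature replicate 1, 2 or 4 (-2.65 to -2.39, adjusted p 0.0534 to 0.0762), and without LP replicate 1 it was -3.52 (adjusted p = 0.0192).

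Nrp1 is also expressed by endothelial cells and fibroblasts, and in bulk samples fewer cells of a type and less RNA per cell cannot be told apart. The endothelial and pericyte marker sum was not higher in mature libraries (1.58 to 8.08 CPM, against 4.79 to 15.5 in LP). The fibroblast sum was above all LP libraries in mature replicates 1 and 2 alone, where most of it was Dcn. The part of either cell type in the Nrp1 level was not tested. Nrp2 had 46 counts in all and was not tested.

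Of the Slit and Robo genes, only Robo1 had enough counts to test. Robo1 (19876; chr16:72027518-73047491) had 13.1, 13.2, 11.3 and 15.4 CPM in LP and 27.1, 34.4, 20.1 and 29.2 CPM in mature libraries. All mature libraries lay above all LP libraries, and the change of 2.09-fold (log2 fold change -1.06 ± 0.26, adjusted p = 0.013, edgeR) passed in every fit with a library left out. The Slits were near the detection limit, with 13, 56 and 64 counts over the 8 libraries for Slit1, Slit2 and Slit3. Robo2 had 53 counts.

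The Robo1 promoter is shown because it was the only promoter among the called guidance genes with a CArG box, the site bound by serum response factor, which is marked in capitals and ends 50 bases before the start. The entry is RefSeq GRCm38.p6, chr16:72662899-72663148 on the plus strand, and its start lies within the Robo1 gene.
Robo1: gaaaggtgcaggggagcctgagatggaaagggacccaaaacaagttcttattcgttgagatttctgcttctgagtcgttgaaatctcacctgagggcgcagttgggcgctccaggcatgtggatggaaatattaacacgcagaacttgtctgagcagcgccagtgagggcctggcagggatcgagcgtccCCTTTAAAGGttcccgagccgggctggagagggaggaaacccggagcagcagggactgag

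CArG boxes were found in 1.41% of 27025 promoters of this length and in 1 of 55 guidance gene promoters. For the 12 called guidance genes with a promoter entry, no match was found to AGATAA (10.2% of all promoters), TGATAA (8.12%), GGAATG (12.6%) or TGTTTAC (3.06%), with both strands searched. CCGGAA was in 1 of the 12, that of Unc50, and in 12.3% of all promoters. These are matches of letters only.

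Levels per kilobase set the guidance genes in an order that was led by ephrins in both fractions. In LP the order was Efna5, Efna1, Unc50, Ntn1, Plxnb2 and Ntn4, at 142, 98.1, 49.8, 19.8, 10.8 and 9.85 CPM per kilobase. The libraries of Plxnb2 (8.35 to 11.9) and Ntn4 (5.06 to 15.4) overlapped, while each gene before them lay above the next in all libraries. In mature cells the order of means was Efna1, Efna5, Unc50, Sema5b, Efna3 and Plxnb2, at 262, 34.7, 30.8, 12.5, 8.60 and 7.89 CPM per kilobase. Efna1 lay above all others, and Efna5 (12.8 to 62.0) overlapped Unc50 (24.8 to 36.3) and Sema5b (8.86 to 17.9). Sema5b, Efna3 (3.03 to 12.1) and Plxnb2 (6.06 to 9.45) overlapped each other. Ntn1, at rank 4 in LP, was at rank 10 in mature cells.

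**Figure D4:**
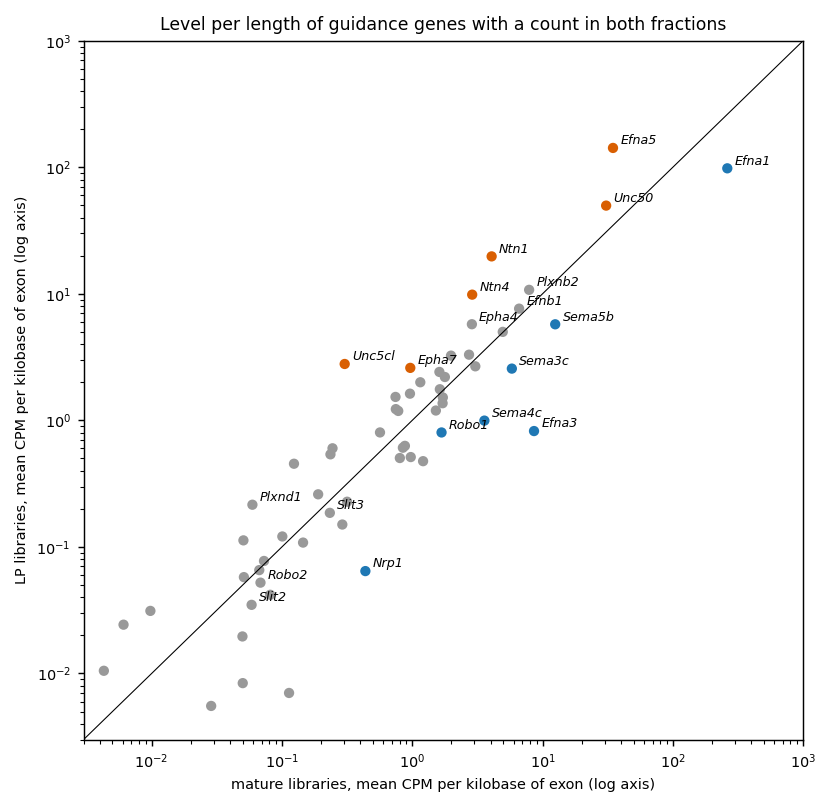
Mean CPM per kilobase of exon in mature libraries (x axis, log scale) and in LP libraries (y axis, log scale) for guidance genes with a count in both fractions, with the line of equal level and colours for genes higher in LP (orange), higher in mature cells (blue) or past no threshold (grey). Efna5 (142 and 34.7) and Efna1 (98.1 and 262) stand at the top right on opposite sides of the line, and Slit2 and Slit3 are among the genes below 1 in both fractions.

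Genes that act downstream of or beside these receptors were read from a list of 60 effectors and co-receptors, of which 45 had enough counts to test. There were 11 calls (24.4%, background 24.7%), with 5 genes up in LP and 6 up in mature cells. The LP count was 3 without LP replicate 1, 2 or 3, and 8 without mature replicate 3. Over all genes, those higher in LP numbered 1048, 1001, 1193 and 1668 in these fits, against 1394 with all libraries.

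Among effectors higher in LP (edgeR log2 fold change) were Flrt3, a transmembrane ligand of Unc5 receptors (2.32 ± 0.59, adjusted p = 0.016), and Dock1, an activator of Rac downstream of DCC (1.96 ± 0.20, adjusted p = 0.0003). Without mature replicate 3, in which it was highest of the group, Flrt3 had a log2 fold change of 3.48 (adjusted p = 9e-05). Met, the receptor of hepatocyte growth factor that associates with plexin-B1, was higher by 1.23 ± 0.20 (adjusted p = 0.002). The PDZ scaffolds Grip1 (1.39 ± 0.44, adjusted p = 0.04) and Pick1 (1.26 ± 0.37, adjusted p = 0.029), which bind ephrin-B and Eph tails, also passed. Grip1 did not pass without LP replicate 1, 2 or 3 or mature replicate 1, 2 or 3 (1.03 to 1.53, adjusted p 0.0512 to 0.128), nor Pick1 without any one LP replicate or mature replicate 4 (1.20 to 1.31, adjusted p 0.0556 to 0.0679).

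Effectors higher in mature cells included Vav3, a signalling protein recruited by Eph receptors (log2 fold change -2.80 ± 0.35, adjusted p = 0.00057), and the actin-binding protein Ablim1 (-2.50 ± 0.37, adjusted p = 0.0011). Mical2, an actin-oxidising enzyme, differed by -2.66 ± 0.71 (adjusted p = 0.02) and did not pass without LP replicate 2 or mature replicate 1 (-2.41 and -2.18, adjusted p 0.0584 and 0.064). Inppl1, a lipid phosphatase that binds EphA2, differed by -1.61 ± 0.37 (adjusted p = 0.0097), and Rgs3, which acts behind ephrin-B, by -1.54 ± 0.34 (adjusted p = 0.0086). Adam10, a membrane protease that cleaves ephrins and Eph receptors, had 268 CPM in LP and 748 CPM in mature cells on average (-1.48 ± 0.20, adjusted p = 0.00086).

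**Figure D5:**
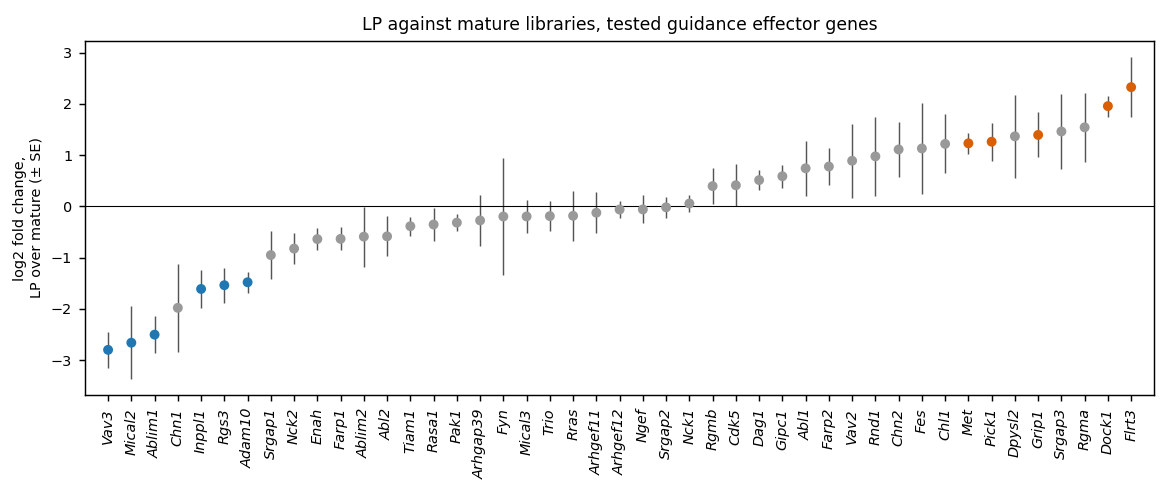
Log2 fold change of LP over mature libraries (y axis, ± SE) of the 45 tested effector genes (x axis, in order of the change), in orange where LP was higher, blue where mature cells were higher and grey past no threshold (edgeR, adjusted p under 0.05). Orange points lie between 1.23 and 2.32 and blue points between -2.80 and -1.48.

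Guidance genes without a call were measured with limited precision. For the 31 tested genes that did not pass, the SE of the log2 fold change was 0.19 to 0.96, and 5 of them had a change above 1 in size. At an unadjusted p under 0.05 (edgeR), 15 of the 44 passed. The share of all genes at that threshold was not counted and is at least the 24.7% called after adjustment.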

How the data were processed

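RNA from sorted LP and mature luminal cells was amplified as cDNA from low input and sequenced as single-end reads. The authors trimmed reads with cutadapt (4.2 per the labels), aligned them to mm10 with Bowtie2 (2.3.5.1 per the labels) and deposited raw counts per gene by Entrez Gene ID without normalization. The counting program, its annotation and its use of strand are not given in the sources used here. The methods state fewer replicates per fraction than the 4 deposited, and all 8 libraries were used.

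Symbols came from RefSeq (24570 of 24594 IDs matched) and exon lengths from GENCODE vM21. Counts were filtered with filterByExpr and scaled by TMM, and LP was compared with mature cells over all genes with the quasi-likelihood test of edgeR 4.0.16 in R 4.3.3 (Benjamini-Hochberg, 0.05), tested on simulated data. Alternatives were RLE factors, tests with no filter or with a minimum of 10 counts in each library, DESeq2 1.42.0, the edgeR exact test, a replicate block and each library left out.

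Guidance genes and lists were chosen with earlier results of these data known. Values per library were given for genes past the threshold or not overlapping, group means for the 8 most abundant others, and effectors past the threshold were named. Pairs of libraries in a fraction differed by 12.6 to 95.7 chi-square per degree of freedom, so none was a duplicate. Intervals and limits from counts cover counting error only.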

Additional observations from a re-analysis of the deposited data

Results flagged for a closer look

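In the group of 4 mature libraries, Flrt3 stood apart in replicate 3. It had 208 CPM there and 28.8, 33.1 and 46.3 CPM in replicates 1, 2 and 4, so the gap to the next library was 0.903 of the range of the group, above the critical value of Dixon's test for 4 samples. All LP libraries were higher. The same library had the highest LP marker sum of the mature group, and also the highest basal marker sum (53.4 CPM). The part of either cell type in the Flrt3 value was not tested. Of 64 groups of 4 examined in this way, 3.2 would be flagged by chance.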

How the results depend on the processing

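All 13 called guidance genes kept their direction in every alternative in which they were tested. Efna5, Ntn1, Epha7, Unc5cl, Efna1, Sema5b and Robo1 also stayed past the threshold. With a library left out, the number of calls was 7 to 12, those higher in mature 3 to 6, and effectors higher in LP 3 to 8. Over all genes, these fits gave 2338 to 3414 calls. RLE factors, DESeq2 and the edgeR exact test each gave 13 calls, no filter gave 12, and at least 10 counts in every library gave 10, where Efna3, Nrp1 and Unc5cl were no longer tested. Small changes turned sign for Epha5 (-0.026 without LP replicate 2, up to 0.63 with others left out), Sema4d (0.013 without mature replicate 2, down to -0.31) and Neo1 (-0.055 without mature replicate 4, up to 0.28). The cause of these shifts was not tested.

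Libraries that share a replicate number in both fractions deviated together only weakly (r = 0.0618 to 0.148), although 7 of 8 correlated best with their own number. With a replicate block, 14 guidance genes passed, Epha4 being added (1.12, adjusted p = 0.0112), and Grip1 no longer passed (1.37, adjusted p = 0.0619). Effectors past the threshold numbered 14 with the block (6 higher in LP, 8 in mature cells), against 11 without it, and 4 of these were added. No other guidance gene or called effector changed its call. Genes with few counts, such as the Slits, did not enter the main fit. With no filter on low counts all 64 guidance genes were tested, and none was added to the calls. At this depth a difference in such genes could be missed.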
